A study of Mus musculus with 10 samples.

Results

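The genes described here are 10 core genes of transforming growth factor beta (TGF-beta) signalling: the ligands Tgfb1, Tgfb2 and Tgfb3, the receptors Tgfbr1 and Tgfbr2, the Smad genes Smad2, Smad3 and Smad7, and Itgav and Itgb8, which encode the integrin that activates latent ligand. They were taken by symbol and made up 10 of the 24421 gene symbols counted. TGF-beta is secreted in a latent complex, is freed by integrins, and binds a type II receptor that recruits and phosphorylates a type I receptor. The type I receptor phosphorylates Smad2 and Smad3, which enter the nucleus with Smad4 and switch target genes, among them Smad7, an inhibitor that feeds back on the receptor. In the brain the pathway is known for keeping microglia, the resident macrophages, in their mature homeostatic state.

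RNA seq had been performed on cortical microglia of mice aged 9 months in 3 groups, WT (3 libraries), APP/PS1 (4 libraries) and N-AS-injected APP/PS1 (3 libraries). APP/PS1 mice carry the hAPP695swe and presenilin-1 M146V transgenes, whose promoters are not given in the sources used here, and serve as a model of amyloid deposition. N-AS is N-acetyl sphingosine, an acetyl donor for COX2, and was given subcutaneously every day at 30 mg per kg for 8 weeks from the age of 7 months to mice of the same transgenic genotype. Each library was a pool from a pair of mice, dissociated with papain and separated on an Optiprep density gradient, so the cells were enriched by density and not sorted on a marker. The untreated APP/PS1 group is labelled by genotype alone; in the treatment experiment such mice received vehicle, and no vehicle is named for WT.

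The 10 libraries held between 8805804 reads on genes (WT 1) and 19432075 (APP/PS1 4), with medians of 17102559 in WT, 13050526 in APP/PS1 and 16500725 with N-AS. Levels are given in CPM, the reads of a gene scaled to its library's total after TMM normalization, unless another scale is named. The least counted of the 10 genes was Tgfb1, with 42 to 303 reads per library, and every one of the 10 passed the filter on low counts. A gene was called when edgeR's quasi-likelihood test gave an adjusted p-value under 0.05 over the 18727 genes tested. The labels number the libraries from 1 to 10, and replicates 1 and 2 of each group hold numbers 1 to 6 while WT 3, APP/PS1 3, APP/PS1 4 and N-AS 3 hold numbers 7 to 10. The labels do not call these numbers a batch. Between 2940 and 3985 genes had no read in 5 of the first 6 libraries, against 566 in WT 1 and 837 to 1740 in numbers 7 to 10.

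Some libraries went against the study's description of male mice. Xist, the RNA expressed from the inactive X chromosome, was at 1.59 to 4.40 CPM in the 3 WT libraries, 453 to 579 CPM in the 4 APP/PS1 libraries, 463 and 469 CPM in N-AS 1 and N-AS 2, and 2.14 CPM in N-AS 3. The Y-linked Ddx3y was at 69.0 to 73.2 CPM in WT and 73.4 CPM in N-AS 3, at 13.6 to 26.8 CPM in APP/PS1 1, APP/PS1 2, N-AS 1 and N-AS 2, and at 0.476 and 0.478 CPM in APP/PS1 4 and APP/PS1 3. Genotype and these sex-linked levels therefore cannot be told apart between APP/PS1 and WT, and N-AS 3 stood apart from the rest of its group. App itself, read as the mouse symbol, was at 1406 to 1753 CPM in WT, 1068 to 1394 CPM in APP/PS1 and 1350 to 1512 CPM with N-AS, so it did not mark the transgenic libraries.

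The cell type label was checked against marker lists. All 14 microglial markers were read in every library, and their summed level was 847, 989 and 1211 CPM in WT 1 to 3, 2510, 2575, 3135 and 2684 CPM in APP/PS1 1 to 4, and 1842, 1997 and 1587 CPM in N-AS 1 to 3. The groups did not overlap, with APP/PS1 highest, N-AS between and WT lowest. Of the 14 markers, 11 were called higher and 0 lower in APP/PS1 than in WT, against 2.67% higher and 0.796% lower over all genes tested. Their median log2 fold change was 1.38, against −0.07 over all genes tested. None of the 14 was called by edgeR between N-AS and APP/PS1, where the median was −0.63. There 9 were lower at an unadjusted p under 0.05 (4.05% of all genes were). With N-AS, 2 of the 14, Tyrobp and Trem2, were called higher than in WT (0.176% of all genes were), where the median was 0.84.

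Transcripts of other brain cells were abundant in every library. Summed oligodendrocyte markers were 6943, 7113 and 2443 CPM in WT 1 to 3, 4770, 4232, 1972 and 2032 CPM in APP/PS1 1 to 4, and 3910, 4019 and 2930 CPM in N-AS 1 to 3. Of these 10 markers, 1 (Cnp) was called lower in APP/PS1, 8 were lower at an unadjusted p under 0.05 (8.90% of all genes were), and all 10 were negative, with a median log2 fold change of −1.21. Summed neuronal markers (10 genes, led by Camk2a) were at 3084 to 6181 CPM and astrocyte markers (10 genes, led by Slc1a2) at 2445 to 4152 CPM. Gfap was the 1 astrocyte gene called, higher in APP/PS1 than in WT and with N-AS than in WT, and 0 of the neuronal genes were called by edgeR in any comparison. The median log2 fold changes between APP/PS1 and WT were −0.26 for the neuronal and −0.15 for the astrocyte markers. Between N-AS and APP/PS1 the medians were 0.48 (oligodendrocyte), 0.03 (neuron) and 0.05 (astrocyte), and between N-AS and WT −0.72, −0.14 and −0.01. Choroid plexus markers (5 genes, led by Ttr) summed to 404 to 407 CPM in WT 1 and WT 2, 699 to 1210 CPM in the APP/PS1 libraries and 616 to 828 CPM in N-AS 1 and N-AS 2, but to 8.44 CPM in WT 3 and 8.64 CPM in N-AS 3.

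Endothelial markers (8 genes, led by Flt1) summed to 517 to 1410 CPM and markers of pericytes and smooth muscle (8 genes, led by Myh11) to 488 to 1998 CPM, with WT 3 lowest in both. Oligodendrocyte precursor markers (6 genes, led by Cspg4) summed to 67.3 to 104 CPM, border macrophage markers (6 genes, led by Mrc1) to 23.3 to 50.5 CPM and lymphocyte markers (6 genes, 5 of them tested, led by Cd3d) to 39.4 to 151 CPM. Fibroblast markers (6 genes, led by Col1a2) and monocyte and neutrophil markers (6 genes, 5 of them tested, led by S100a9) were highest in APP/PS1 3, at 512 and 93.1 CPM, against at most 175 and 17.2 CPM in the other libraries. No gene of these 7 lists or of the choroid plexus list was called by edgeR in any comparison. Between APP/PS1 and WT their medians were 0.16 (endothelial), 0.02 (pericyte and smooth muscle), −0.02 (oligodendrocyte precursor), 0.06 (border macrophage), 0.31 (lymphocyte), −0.07 (fibroblast), 2.14 (monocyte and neutrophil) and 1.08 (choroid plexus), and 1 gene, of the choroid plexus list, had an unadjusted p under 0.05. Between N-AS and APP/PS1 they were −0.08, 0.04, −0.24, −0.05, −0.57, −0.23, −1.12 and −0.92 in the same order, and between N-AS and WT 0.02, −0.04, −0.12, −0.11, −0.02, −0.08, 0.07 and 0.21. A single marker, in the monocyte and neutrophil list, had no read in some library. In such mixed bulk samples, a different share of a cell type and a different RNA content per cell cannot be told apart.

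The first comparison, APP/PS1 against WT, asks how the TGF-beta genes differed in the amyloid model. Tgfb1, Tgfbr1 and Tgfbr2 were higher in the APP/PS1 libraries, about 1.9 to 2.6-fold, while the other 7 genes, including all 3 Smads and both integrin genes, were not called. The mean log2 level of the 14 microglial markers was higher by 1.5 in the same libraries, and relative to it Tgfb1, Tgfbr1 and Tgfbr2 differed by −0.13, −0.37 and −0.52. In all, 3 of the 10 genes were called higher and 0 lower, against 500 genes higher (2.67%) and 149 lower (0.796%) among the 18727 tested (3.47% in either direction). With DESeq2 the split over all genes was 849 higher and 447 lower, and the same 3 of the 10 were called. The split moved with the libraries used, to 549 higher and 374 lower without WT 3, 478 and 459 with library numbers 1 to 6 alone, and 263 and 36 without APP/PS1 3. The median log2 fold change over the 10 was −0.02, against −0.07 over all genes. At an unadjusted p under 0.05, 3 of the 10 were higher and 2, Tgfb3 and Smad2, lower, against 8.30% and 8.90% of all genes (17.2% in either direction). The libraries of the groups did not overlap for 4 of the 10 genes, Tgfb1, Tgfbr1 and Tgfbr2 higher and Smad2 lower, against 8.15% higher, 6.73% lower and 14.9% in either direction over all genes.

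Tgfb1 encodes the main TGF-beta ligand made by microglia. It was at 4.99, 7.49 and 5.45 CPM in WT 1 to 3, 15.1, 18.1, 14.2 and 14.4 CPM in APP/PS1 1 to 4, and 10.2, 13.1 and 8.05 CPM in N-AS 1 to 3. The APP/PS1 libraries lay above every other library, the N-AS libraries in between and the WT libraries lowest, with no overlap among the 3 groups. The log2 fold change of Tgfb1 between APP/PS1 and WT was 1.36 (standard error 0.21, 95% interval 0.90 to 1.82, adjusted p = 0.0059 in edgeR). As a difference of mean log2 CPM it was 1.42 among libraries 1 to 6 and 1.37 among 7 to 10. Tgfb1 lies at chr7:25687002-25705077 on the plus strand of mm10.

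The other ligand genes showed no such pattern. Tgfb2 was at 18.7 to 29.0 CPM in WT, 20.0 to 25.2 CPM in APP/PS1 and 19.8 to 24.1 CPM with N-AS, and its log2 fold change of −0.13 (95% interval −0.48 to 0.22) between APP/PS1 and WT was within the spread. Tgfb3 was at 40.2, 47.2 and 21.6 CPM in WT 1 to 3, 21, 24.6, 22.7 and 25.2 CPM in APP/PS1 1 to 4, and 25.8, 29.5 and 24.5 CPM in N-AS 1 to 3. WT 1 and WT 2 stood above every other library, and WT 3 fell among the APP/PS1 values. Tgfb3 had a log2 fold change of −0.63 with a standard error of 0.22 (edgeR, adjusted p = 0.165). Without WT 3 it was −0.90 and was called (edgeR, adjusted p = 0.00555), and without WT 2 it was −0.38 (edgeR, adjusted p = 0.402), the ends of the range over the fits that leave out a library. In a fit of library numbers 1 to 6 alone it was called as well, at −0.97 (edgeR, adjusted p = 0.00904, in a range of 0.00904 to 0.288 over the 9 alternatives with at least 2 libraries a group), and with 7 to 10, where WT 3 was the only WT library, it was 0.16. Tgfb2 lies at chr1:186622792-186705989 and Tgfb3 at chr12:86056745-86079041, both on the minus strand.

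Tgfbr1 encodes the type I receptor, the kinase that phosphorylates Smad2 and Smad3. It was at 87.2, 96.5 and 119 CPM in WT 1 to 3, 188, 197, 263 and 235 CPM in APP/PS1 1 to 4, and 177, 189 and 152 CPM in N-AS 1 to 3. The WT libraries were lowest and separate from both transgenic groups, while N-AS 2 reached into the APP/PS1 range. The log2 fold change between APP/PS1 and WT was 1.13 (standard error 0.17, 95% interval 0.75 to 1.52, adjusted p = 0.0059 in edgeR), and the difference of mean log2 CPM was 1.07 both among libraries 1 to 6 and among 7 to 10. Tgfbr1 lies at chr4:47353222-47414931 on the plus strand.

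Tgfbr2 encodes the type II receptor, which binds the ligand first. It was at 85.1, 96.0 and 57.0 CPM in WT 1 to 3, 129, 135, 176 and 176 CPM in APP/PS1 1 to 4, and 122, 131 and 96.9 CPM in N-AS 1 to 3. All APP/PS1 libraries were above all WT libraries, N-AS 3 lay just above the highest WT library, and N-AS 2 lay among the APP/PS1 values. The log2 fold change between APP/PS1 and WT was 0.96 (standard error 0.21, 95% interval 0.50 to 1.42, adjusted p = 0.0316 in edgeR). This call was near the threshold. Without WT 1, APP/PS1 2, APP/PS1 3 or APP/PS1 4 in turn, edgeR gave 1.01, 1.02, 0.90 and 0.90, with adjusted p of 0.0799, 0.0531, 0.0969 and 0.0929, and without any other library the highest was 0.0484. The call was lost too with the compared groups alone (0.97, edgeR, adjusted p = 0.0763) and with a replicate block (0.92, adjusted p = 0.0935), in a range of 0.000319 to 0.0935 over the 9 alternatives with at least 2 libraries a group. Among libraries 1 to 6 the difference of mean log2 CPM was 0.54, and among 7 to 10, where WT 3 was the only WT library, it was 1.63. Tgfbr2 lies at chr9:116084293-116175360 on the minus strand.

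None of the Smad genes was called. Smad2 and Smad3 encode the Smads that the receptor phosphorylates. Smad2 was at 107, 75.7 and 80.6 CPM in WT 1 to 3, 70.9, 68.7, 70.6 and 73.3 CPM in APP/PS1 1 to 4, and 82.8, 73.3 and 74.4 CPM in N-AS 1 to 3. The 4 APP/PS1 libraries were the lowest of all, N-AS 2 lay just above APP/PS1 4, and WT 1 was the highest. The log2 fold change of Smad2 between APP/PS1 and WT was −0.31 (standard error 0.13), with an adjusted p of 0.275 in edgeR. Without WT 1 it was −0.14 (edgeR, adjusted p = 0.577, in a range of 0.170 to 0.577 over the fits that leave out a library). Smad3 stayed within 44.2 to 55.1 CPM over all 10 libraries, with a log2 fold change of 0.08 (95% interval −0.15 to 0.32).

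Smad7, the inhibitory Smad, was at 45.2, 61.6 and 39.4 CPM in WT 1 to 3, 55.4, 58.3, 54.6 and 56.8 CPM in APP/PS1 1 to 4, and 58.1, 57.5 and 35.4 CPM in N-AS 1 to 3. The lowest values were in N-AS 3 and WT 3, and WT spanned the whole APP/PS1 range. Between APP/PS1 and WT it differed by 0.21 on the log2 scale (95% interval −0.22 to 0.64). Smad7 and Smad2 lie at chr18:75367529-75395935 and chr18:76241580-76310963, both on the plus strand, and Smad3 at chr9:63646767-63757994 on the minus strand.

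Itgav and Itgb8 encode the alpha and beta chains of the integrin that frees TGF-beta from its latent complex. Itgav was at 107 to 121 CPM in WT, 97.4 to 119 CPM in APP/PS1 and 107 to 132 CPM with N-AS. Itgb8 was at 26.3 to 31.3 CPM in WT, 18.6 to 30.0 CPM in APP/PS1 and 23.3 to 28.7 CPM with N-AS. The groups overlapped for both genes, and their log2 fold changes between APP/PS1 and WT were −0.15 (95% interval −0.44 to 0.14) and −0.13 (95% interval −0.50 to 0.25). Itgav lies at chr2:83724397-83806916 on the plus strand and Itgb8 at chr12:119158022-119238802 on the minus strand. In the annotation, exons of Tgfb2, Tgfb3 and Itgav overlap unnamed transcripts on the opposite strand, each over 2.14% to 7.60% of the exon length of the gene and 2 of them in Tgfb3, and since the strand setting of the counting is not given in the sources used here, such reads cannot be told apart.

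**Figure D1:**
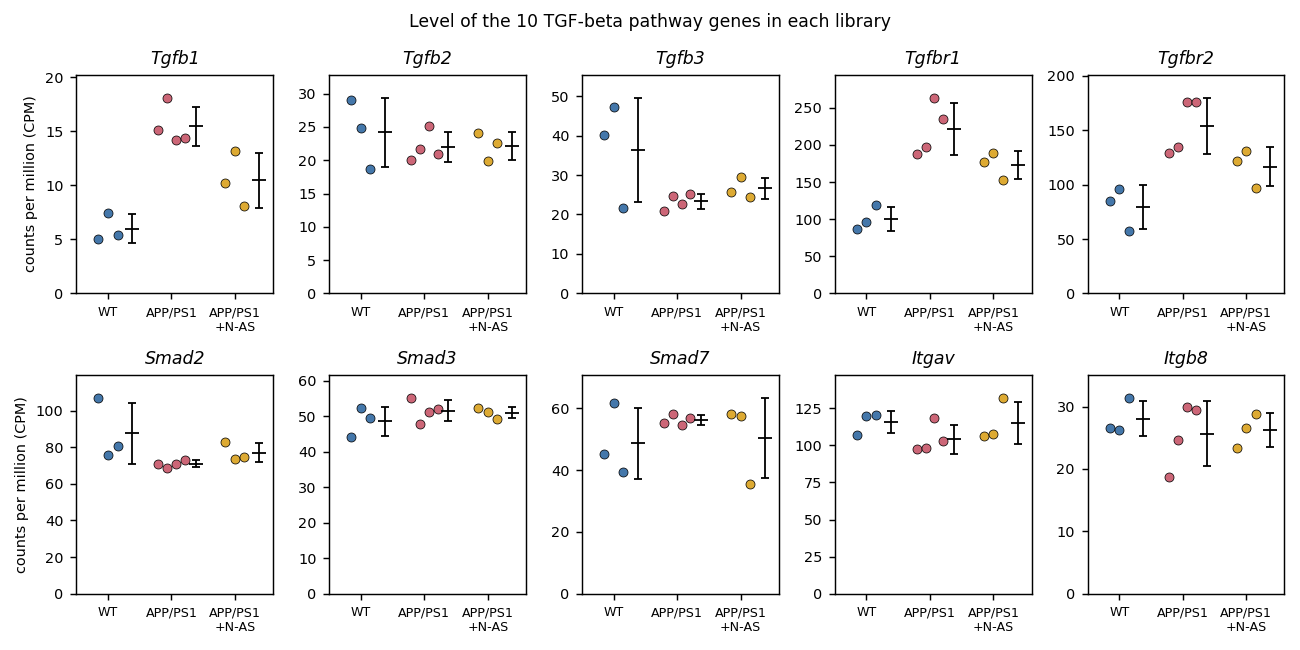
Level of each of the 10 genes in each library, in CPM on axes that start at 0, with the mean and SD of each group as a bar beside the points (n = 3, 4 and 3). Tgfb1, Tgfbr1 and Tgfbr2 are higher in all 4 APP/PS1 libraries than in all 3 WT libraries, and Tgfb3 is high in WT 1 and WT 2 but not in WT 3.

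Per length of annotated exon, the order of the levels differed from the order of CPM. In WT, on the scale of mean CPM per kb of exon, Tgfbr1 was highest at 15.4 ± 2.48 (SD, n = 3), followed by Smad7 at 10.8 ± 2.55, whose libraries overlapped those of Tgfbr1, Itgav at 10.8 ± 0.70 and Tgfb3 at 10.7 ± 3.91. Smad2, Tgfbr2 and Smad3 came next at 9.98, 9.70 and 8.78, and these middle genes did not differ from their neighbours beyond the spread over libraries. Tgfb2 (4.17 ± 0.89), Itgb8 (2.54 ± 0.25) and Tgfb1 (1.19 ± 0.26) were lower, each with no overlap with the next. In APP/PS1, Tgfbr1 led at 33.8 ± 5.32 CPM per kb (SD, n = 4), Tgfbr2 was next at 18.8 ± 3.14, and Tgfb1, at 3.07 ± 0.36, was above Itgb8 at 2.32 ± 0.48. Tgfb1 and Tgfb2 overlapped there, as did Itgav and Smad3. With N-AS the order was again Tgfbr1 (26.5 ± 2.88, n = 3), Tgfbr2 (14.2 ± 2.15) and Smad7 (11.1 ± 2.87), and Tgfb1 was last at 2.08 ± 0.51. There the libraries of Tgfbr2 overlapped those of Smad7, as did Smad7 with Itgav, Smad3 with Smad2, Smad2 with Tgfb3 and Itgb8 with Tgfb1.

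The second comparison, N-AS-injected against untreated APP/PS1 mice, asks what the treatment changed. None of the 10 genes was called, and neither was any of the 18727 genes tested (0% in either direction) in edgeR, whose lowest adjusted p was 0.405. The unadjusted p was under 0.05 for 1653 genes, 4.78% higher and 4.05% lower (8.83% in all), among them 1 of the 10, Tgfb1, lower with N-AS. DESeq2 called 73 genes, 0 of them among the 10. The libraries did not overlap for 2 of the 10 genes, against 6.26% higher, 6.46% lower and 12.7% in either direction over all genes. These were Tgfb1, lower with N-AS, and Smad2, higher with N-AS by a log2 fold change of 0.12 (standard error 0.13).

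Tgfb1 was 10.5 ± 2.56 CPM with N-AS (SD, n = 3) and 15.5 ± 1.80 CPM in APP/PS1 (SD, n = 4), which edgeR fitted as −0.56 on the log2 scale (95% interval −1.0 to −0.11, standard error 0.20, adjusted p = 0.510). Without N-AS 3, the library with WT-like sex-linked levels, it was −0.39 (edgeR, adjusted p = 0.724, in a range of 0.415 to 0.996 over the fits that leave out a library). For Tgfbr1 the log2 fold change was −0.35 (standard error 0.17) and for Tgfbr2 −0.40 (standard error 0.20), and without N-AS 3 they were −0.26 and −0.28. As differences of mean log2 CPM, Tgfbr1 and Tgfbr2 were at −0.07 and −0.06 among libraries 1 to 6, and at −0.71 and −0.86 among 7 to 10, where N-AS 3 was the only treated library. The larger values thus rest on 1 treated library.

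The remaining genes stayed near their APP/PS1 level with N-AS. The log2 fold changes of Tgfb2, Tgfb3, Smad2, Smad3, Itgav and Itgb8 lay between −0.02 (Smad3) and 0.19 (Tgfb3), each with a 95% interval that spanned 0. Smad7 was at −0.16 (95% interval −0.59 to 0.27), and at 0.05 without N-AS 3, where Smad7 was lowest.

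The third comparison, N-AS-injected APP/PS1 mice against WT, shares its libraries with the other comparisons and is given beside them. None of the 10 genes was called, against 35 of 18727 genes (0.187%) in edgeR, of which 33 were higher (0.176%) and 2 lower (0.0107%). The split over all genes was 248 higher and 189 lower with library numbers 1 to 6 alone. Leaving out a library in turn gave 1 to 116 called genes. At an unadjusted p under 0.05, 3 of the 10 (Tgfb1, Tgfbr1 and Tgfbr2) were higher, against 3.64% higher, 3.09% lower and 6.73% in either direction over all genes. Their log2 fold changes were 0.80 for Tgfb1 (standard error 0.22, adjusted p = 0.331), 0.78 for Tgfbr1 (standard error 0.18, adjusted p = 0.206) and 0.56 for Tgfbr2 (standard error 0.22, adjusted p = 0.663 in edgeR). Each of these genes was higher in all 3 N-AS libraries than in all 3 WT libraries, against 4.90% of genes higher, 3.91% lower and 8.81% in either direction without overlap. DESeq2 called 180 genes, Tgfbr1 among them. Values for the remaining 7 genes lay between −0.44 (Tgfb3) and 0.07 (Smad3). Over the fits that leave out a library, Tgfb3 ranged from −0.71 to −0.19 and Smad2 from −0.28 to −0.023. With library numbers 1 to 6 alone, edgeR called Tgfb3 (−0.70) and Tgfbr1 (0.95).

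**Figure D2:**
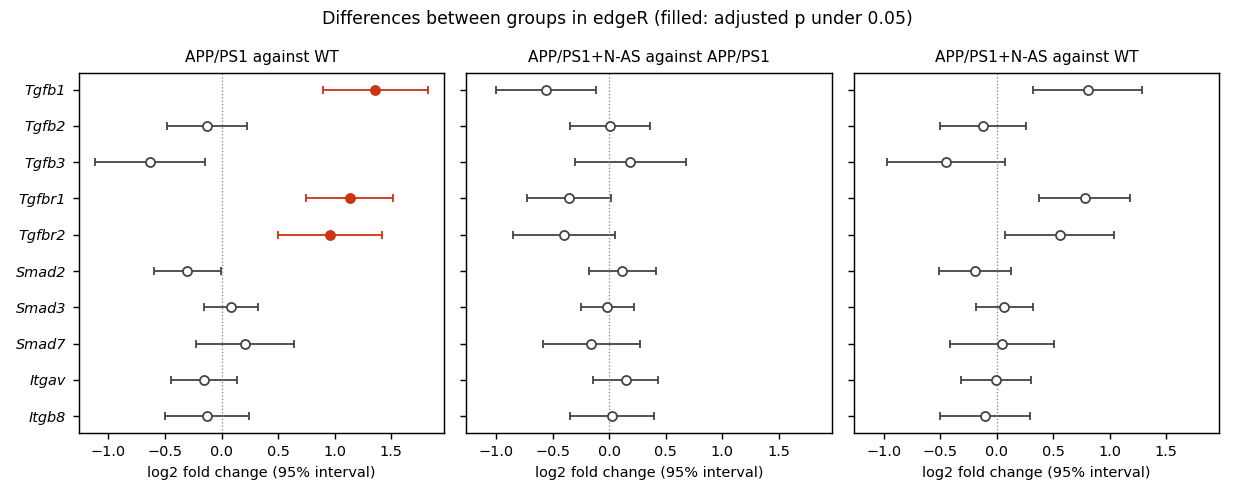
Log2 fold change of each of the 10 genes in the 3 comparisons, with 95% intervals from edgeR's test; filled points have an adjusted p under 0.05. Only Tgfb1 (1.36), Tgfbr1 (1.13) and Tgfbr2 (0.96) between APP/PS1 and WT are filled. Between N-AS and APP/PS1, 5 of the 10 genes lie below 0: Tgfb1, Tgfbr1, Tgfbr2, Smad3 and Smad7. Only the interval of Tgfb1 leaves out 0 there.

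The mean of the microglial markers had the same order of groups as these 3 genes. The 14 markers differed among themselves, and P2ry12, Tmem119 and Sall1 were those not called between APP/PS1 and WT. Trem2 was at 10.3 to 16.6 CPM in WT and 105 to 170 CPM in APP/PS1. P2ry12 was at 61.8 to 90.5 CPM in WT and 78.5 to 120 CPM in APP/PS1. Values relative to the marker mean thus depend on the markers chosen. The mean log2 CPM of the 14 markers differed by 1.5 between APP/PS1 and WT, by −0.59 between N-AS and APP/PS1 and by 0.91 between N-AS and WT. Set relative to that mean in each library, Tgfb1 was −2.86 ± 0.42 in WT (SD, n = 3), −2.99 ± 0.25 in APP/PS1 (n = 4) and −2.98 ± 0.15 with N-AS (n = 3), on the log2 scale, and the groups overlapped. Relative to the markers, Tgfbr1 was 1.20 ± 0.05 in WT, 0.83 ± 0.16 in APP/PS1 and 1.07 ± 0.05 with N-AS, with all APP/PS1 libraries below all WT libraries. Tgfbr2 was 0.83 ± 0.64, 0.31 ± 0.21 and 0.49 ± 0.02, with overlap. The other 7 genes were lower relative to the markers in APP/PS1 than in WT, by −1.26 (Smad7) to −2.06 (Tgfb3). Without the subtraction, their differences of mean log2 CPM were −0.56 (Tgfb3) to 0.23 (Smad7). Any gene with the same CPM in both groups would come out lower by about 1.5 on the relative scale, so these values are not particular to the 7 genes. The part of the microglial marker level in the differences of Tgfb1, Tgfbr1 and Tgfbr2 was not tested.

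**Figure D3:**
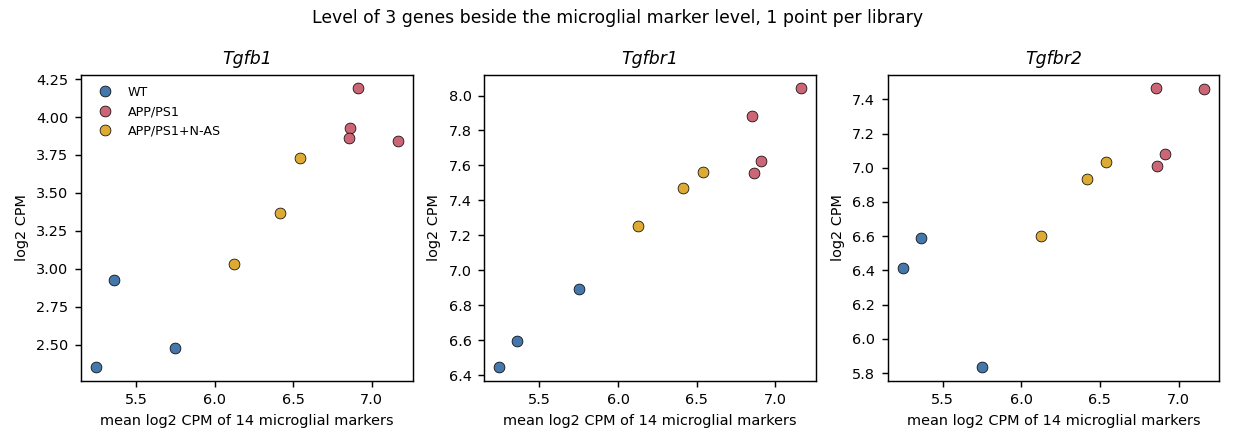
Log2 CPM of Tgfb1, Tgfbr1 and Tgfbr2 against the mean log2 CPM of 14 microglial markers, 1 point per library, coloured by group. WT libraries lie at a marker level of 5.24 to 5.75, N-AS libraries at 6.12 to 6.54 and APP/PS1 libraries at 6.85 to 7.16, and all 3 genes are lowest in the WT libraries. Tgfb1 is highest in the APP/PS1 libraries, while N-AS 2 lies above APP/PS1 1 for Tgfbr1 and Tgfbr2.

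The genes with the most similar profile were sought for each of the 10 genes whose libraries differed by at least 1.5 on the log2 scale, that is Tgfb1, Tgfbr1 and Tgfbr2. Likeness was the root mean square difference of centred log2 CPM over the 10 libraries, among 13214 other genes with a mean of at least 5 CPM. Closest to Tgfb1 were Pabpc1 (0.16), Fau (0.19) and Renbp (0.19). Closest to Tgfbr1 were Hpgds (0.08), Lgmn (0.09) and Cyth4 (0.09), and closest to Tgfbr2 were Rplp0 (0.06), Tmem176b (0.08) and Rps12 (0.08). Among the other TGF-beta genes, Tgfbr1 ranked 124 and Tgfbr2 159 in likeness to Tgfb1, Tgfbr2 ranked 302 and Tgfb1 329 in likeness to Tgfbr1, and Tgfbr1 ranked 496 and Tgfb1 663 in likeness to Tgfbr2.

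Of the wider pathway, 114 of the 119 listed genes in the files were tested, and 12 were called higher and 1 lower in APP/PS1 than in WT, against 2.67% higher and 0.796% lower over all genes. In the lists below with 1 called gene, that count is too small to be set against these shares. None was called in either comparison with N-AS in the main edgeR fit. Between N-AS and WT, the library number as a covariate gave 1 immediate Smad target and 1 microglial gene that depends on TGF-beta (64 of 18727 genes). Without WT 3, 2 of these microglial genes were called (57 of 19112 genes). Without N-AS 3, 1 each of them, of latency and activation, of other Smads and partners and of Smad targets was called (116 of 19914 genes). In the same comparison, DESeq2 called 6 of the 16 microglial genes that depend on TGF-beta, 1 gene of latency and activation and 1 immediate Smad target. It called 180 of all 24278 genes tested there. With library numbers 1 to 6 alone, edgeR called 6, 3 and 1 of these lists and 1 antagonist, against 437 of all 18003 genes tested. DESeq2 called 0 genes of the 8 lists between N-AS and APP/PS1. The median log2 fold change of the 114 between APP/PS1 and WT was 0.04, against −0.07 over all genes, and it was −0.04 between N-AS and APP/PS1 and 0.05 between N-AS and WT. Most of the called genes, 9 of them, are microglial genes that depend on TGF-beta.

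Of 20 genes of latency and activation, 1 was called higher and 0 lower in APP/PS1, with a median of −0.08. It was Itgb5, the beta chain of another integrin that can activate TGF-beta, at 64.5, 78.8 and 82.1 CPM in WT 1 to 3, 192, 209, 263 and 260 CPM in APP/PS1 1 to 4, and 165, 186 and 123 CPM in N-AS 1 to 3. The 3 groups did not overlap, with APP/PS1 highest. The log2 fold change of Itgb5 was 1.62 between APP/PS1 and WT (standard error 0.19, adjusted p = 0.00153 in edgeR) and −0.55 between N-AS and APP/PS1 (adjusted p = 0.509). Nrros, which anchors latent TGF-beta on microglia and was named after its values were seen, was at 65.5 to 111 CPM in WT, 52.0 to 64.2 CPM in APP/PS1 and 61.5 to 75.7 CPM with N-AS. Between APP/PS1 and WT it differed by −0.50 on the log2 scale (edgeR, adjusted p = 0.171).

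Of 14 other receptors and co-receptors and 10 genes of the branch that does not use Smads, 0 were called by edgeR, with medians of 0.06 and 0.00, 1 and 2 had an unadjusted p under 0.05 (17.2% of all genes did), and DESeq2 called 0 and 1. The most abundant were Bmpr2, a type II receptor for bone morphogenetic proteins, at 198 to 291 CPM, and the kinase gene Rock1, at 184 to 334 CPM. Of 17 other Smads and Smad partners tested, 1 was called higher, with a median of 0.15. It was Tgif1, a repressor of Smad-driven transcription, at 4.20 to 6.66 CPM in WT, 13.8 to 15.7 CPM in APP/PS1, and 10.3, 12.6 and 3.99 CPM in N-AS 1 to 3, and edgeR put its difference between APP/PS1 and WT at 1.51 on the log2 scale (standard error 0.33, adjusted p = 0.0313). N-AS 3 fell below the WT values while the other N-AS libraries lay between the groups. No gene of that list passed when any of WT 1, WT 2 and the APP/PS1 libraries was left out, or with the replicate block. More passed under other settings, counted without regard to sign: 2 with DESeq2 (1296 of 24278 genes did) and 2 with the library number set as a covariate (1055 of 18727). With library numbers 1 to 6 alone 3 passed, where 478 of all 18003 genes were higher and 459 lower.

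Of 14 other ligands of the superfamily tested, 1 was called lower and 0 higher in APP/PS1, with a median of −0.39. It was Inhba, which encodes a subunit of activin, at 6.46 to 8.8 CPM in WT, 4.03 to 5.01 CPM in APP/PS1 and 4.66 to 5.94 CPM with N-AS, which edgeR put at −0.79 on the log2 scale between APP/PS1 and WT (standard error 0.19, adjusted p = 0.0448). This call too was absent when any of WT 1, WT 2 and the APP/PS1 libraries was left out. It was also absent with library totals, without a filter, with the compared groups alone, with the replicate block and with library numbers 1 to 6. Other settings gave more calls, counted without regard to sign. There 2 ligands each were called with DESeq2 (1296 of 24278 genes), with limma (497 higher and 135 lower of 18727) and with the library number set as a covariate (1055 of 18727). Of 11 secreted antagonists tested, 0 were called by edgeR or DESeq2 with all libraries and 0 had an unadjusted p under 0.05, with a median of −0.40. With library numbers 1 to 6 alone, edgeR called 2, where 478 of all 18003 genes were higher and 459 lower. The most abundant antagonist, Bgn, a matrix proteoglycan that binds TGF-beta, was at 33.5 to 95.5 CPM. Between N-AS and APP/PS1 the medians were −0.11 for latency and activation, −0.10 for receptors, −0.02 for Smads and partners, 0.00 for the branch without Smads, 0.26 for ligands and 0.00 for antagonists, against −0.01 over all genes. Between N-AS and WT they were −0.13, 0.03, 0.11, 0.05, −0.02 and −0.27 in the same order, against −0.04 over all genes.

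Of 15 immediate target genes of the Smads, 1 was called higher and 0 lower in APP/PS1, with a median of 0.23. Without WT 3, 5 genes of this list passed between APP/PS1 and WT, against 923 of all 19112 genes. DESeq2 called 2 (1296 of 24278 genes), and edgeR with the library number set as a covariate 3 (1055 of 18727). With library numbers 1 to 6 alone 7 passed, where 478 of 18003 genes were higher and 459 lower. The median of the list was −0.14 between N-AS and APP/PS1 and 0.14 between N-AS and WT.

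Of 16 microglial genes known to depend on TGF-beta, 9 were called higher and 0 lower in APP/PS1, with a median log2 fold change of 0.91. They included the complement gene C1qa at 2.51 (standard error 0.33), the growth factor receptor gene Csf1r at 1.32 (0.19) and the orphan receptor gene Gpr34 at 1.39 (0.21), with adjusted p-values of 0.00255, 0.00475 and 0.0050 in edgeR. This list holds 10 of the 14 microglial markers, and of its 6 other genes 2 were called, with a median of 0.48. With N-AS the median of the 16 was −0.42 against APP/PS1, where 15 of 16 were negative, and 0.49 against WT. C1qa was at 25.3, 31.6 and 50 CPM in WT 1 to 3, 150, 162, 218 and 287 CPM in APP/PS1 1 to 4, and 120, 129 and 71.7 CPM in N-AS 1 to 3. The 3 groups did not overlap, and N-AS 3 was the nearest to WT.

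Since Tgfb1, Tgfbr1 and Tgfbr2 were the called genes of the 10, the 250 bases before the start of each are shown, from RefSeq (GRCm38.p6), where 7 of the 10 genes had an entry; Tgfb3, Smad2 and Smad7 had none. The motifs were chosen after the expression values were seen and were searched on both strands: GAGGAAGT (PU.1), TGANTCA (AP-1), GTCTAGAC (Smads), GGGCGG (the GC box) and TATAAA (the TATA box), none of which holds another. They occur in 2.44%, 6.75%, 0.167%, 32.7% and 12.4% of the 250-base windows of 32851 promoters. Capitals mark the matches, all of them GC boxes on either strand: 5 in the Tgfb1 window, 2 in the Tgfbr1 window and 0 in the Tgfbr2 window. Of the genes not called, the window of Smad3 held 2 GC boxes, that of Itgav 1 PU.1 motif, that of Tgfb2 1 TATA box and that of Itgb8 none of the motifs, so GC boxes were not confined to the called genes. The windows are chr7:25686752-25687001 (plus strand), chr4:47352972-47353221 (plus strand, the first of 2 listed starts) and chr9:116175364-116175613 (minus strand).
Tgfb1: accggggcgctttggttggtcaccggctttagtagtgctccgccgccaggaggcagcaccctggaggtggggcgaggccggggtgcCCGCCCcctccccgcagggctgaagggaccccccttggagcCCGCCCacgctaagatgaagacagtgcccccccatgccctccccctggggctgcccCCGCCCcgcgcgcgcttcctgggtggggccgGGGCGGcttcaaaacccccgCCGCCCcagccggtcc
Tgfbr1: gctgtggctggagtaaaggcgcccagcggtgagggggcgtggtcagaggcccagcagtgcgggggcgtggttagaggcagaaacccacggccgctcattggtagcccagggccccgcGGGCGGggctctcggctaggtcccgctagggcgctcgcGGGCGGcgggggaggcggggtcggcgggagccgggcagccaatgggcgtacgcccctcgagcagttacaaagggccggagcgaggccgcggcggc
Tgfbr2: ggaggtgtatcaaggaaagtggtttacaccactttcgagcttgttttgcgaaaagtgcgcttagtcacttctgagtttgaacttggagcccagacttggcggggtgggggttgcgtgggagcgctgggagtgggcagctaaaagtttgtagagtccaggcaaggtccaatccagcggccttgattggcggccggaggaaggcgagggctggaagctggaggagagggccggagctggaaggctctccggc
The G and C content of the windows was 75.2%, 74.8% and 58.4%, against a median of 52.4% over all promoters.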

How the data were processed

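RNA of microglia from 10 libraries was measured by paired-end sequencing, and the authors deposited raw read counts per gene symbol for each library, made from reads aligned to mm10 with TopHat. The submitters' processing notes also name edgeR, and none of the versions is given. The 10 genes and all lists were chosen with earlier results of these data known. The test was that of edgeR 4.0.16, run in R 4.3.3 (filterByExpr, TMM, quasi-likelihood test, 1 model of the 3 groups), with Benjamini-Hochberg adjustment over 18727 genes and a threshold of 0.05. The biological coefficient of variation was 27.4%. Levels are TMM-scaled CPM, with a prior count of 2 where logged. Standard errors were the log2 fold change divided by the root of the F statistic, and intervals are 95%. Levels per kb used the union of exons in GENCODE M21.

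The genes named were the 10 genes; up to 4 called genes with the lowest p of each pathway list, or its most abundant gene where none was called; the most abundant gene of each cell type list; Xist, Ddx3y and App; and the 3 closest profiles. The 8 pathway lists were latency and activation, other receptors, other Smads and partners, the branch without Smads, other ligands, antagonists, immediate Smad targets and microglial genes that depend on TGF-beta. The 12 cell type lists are those given with their summed levels. Other genes named were chosen after their values were seen, and some genes the rule names are not reported here.

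Libraries with the same replicate number were checked for pairing by the correlation of residual log2 CPM across genes, which was −0.486 to 0.441 between APP/PS1 and WT, 0.142 to 0.309 between N-AS and APP/PS1 and −0.136 to 0.348 between N-AS and WT. A block for replicate number was therefore run as an alternative, in which APP/PS1 4, alone in its replicate number, does not add to the fold changes. The others were DESeq2 1.42.0, library totals, upper-quartile scaling, limma 3.58.1 (voom with quantile normalization), no filter, the compared groups alone, the library number set as a covariate, each library left out, and, chosen after seeing the data, library numbers 1 to 6 or 7 to 10 alone. FPKM values were not used here.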

Additional observations from a re-analysis of the deposited data

Results flagged for a closer look

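Among the 33 groups of 4 APP/PS1 values examined, 1 held a library whose gap to the next, as a share of the group's range, was above Dixon's 95% critical value. The mean log2 CPM of the endothelial markers was 6.70 in APP/PS1 3 and 6.82, 6.82 and 6.81 in APP/PS1 1, 2 and 4, so that a small gap took up 0.916 of the range. The same library stood further from the others, by gaps whose share of the range lay just below the critical value, in the mean log2 CPM of the fibroblast markers (4.71, against 3.29 to 3.54) and of the monocyte and neutrophil markers (3.17, against −0.41 to 0.20). Chance puts a gap above the critical value in about 1 in 20 groups, and the 33 groups share the same 4 libraries.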

How the results depend on the processing

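Outside the fits that leave out a library, 272 fold changes of the 10 genes kept their direction and side of the threshold, 18 turned sign, 2 lost and 8 gained a call. Tgfb1 (1.35 to 1.41) and Tgfbr1 (1.03 to 1.18) were called between APP/PS1 and WT under all 9 alternatives that keep at least 2 libraries a group, and Tgfbr2 (0.51 to 1.02) under 7. The causes of the changes below were not tested.

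Genes called between APP/PS1 and WT numbered 1296 with DESeq2, 410 with the compared groups alone, 1055 with the library number set as a covariate and 4480 with library numbers 7 to 10. Between N-AS and APP/PS1 they numbered 73 with DESeq2, 11 with numbers 1 to 6 and 1341 with 7 to 10. Between N-AS and WT they numbered 180 with DESeq2, 20 with limma, 2 with the compared groups alone, 64 with the covariate, 437 with numbers 1 to 6 and 488 with 7 to 10. Of the 10 genes, DESeq2 called 1 between N-AS and WT (Tgfbr1, 0.78), and numbers 1 to 6 called 2 (Tgfb3, −0.70, and Tgfbr1, 0.95), and called Tgfb3 between APP/PS1 and WT (−0.97). Numbers 7 to 10 called 3 between N-AS and APP/PS1 (Tgfbr1 −0.72, Tgfbr2 −0.87, Smad7 −0.67), and Smad7 between APP/PS1 and WT (0.51, against 0.21 with all libraries). In numbers 7 to 10 there is 1 WT and 1 N-AS library, with no spread of their own, and the fit assumes that they vary like the APP/PS1 libraries, so these calls give no test of a group.

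With the replicate block, 326 genes were called between APP/PS1 and WT, 0 between N-AS and APP/PS1 and 5 between N-AS and WT. The block ended the call of Tgfbr2 between APP/PS1 and WT (0.92, edgeR, adjusted p = 0.0935, in a range of 0.000319 to 0.0935), as it did those of Tgif1 and Inhba, and put Tgfb2 at −0.020 between N-AS and APP/PS1.

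The following fold changes turned sign. Between N-AS and APP/PS1, Tgfb2 was −0.036 with library totals, −0.022 with upper quartiles, −0.012 with limma, −0.0043 with the covariate and −0.044 with numbers 7 to 10. Itgb8 was −0.023, −0.0058 and −0.059 with totals, upper quartiles and numbers 7 to 10, and Smad7 was 0.017 with numbers 1 to 6. Between N-AS and WT, Itgav was 0.021 without a filter. With numbers 7 to 10, N-AS against WT gave 0.13 for Itgav, 0.27 for Tgfb2, 0.18 for Tgfb3, −0.0073 for Smad3 and −0.16 for Smad7, and APP/PS1 against WT gave 0.31 for Tgfb2 and 0.16 for Tgfb3.

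Leaving out a library in turn gave 299 to 923 called genes between APP/PS1 and WT (highest without WT 3, lowest without APP/PS1 3 or 4), 0 to 1 between N-AS and APP/PS1 and 1 to 116 between N-AS and WT (highest without N-AS 3). Of the 10 genes it called 2 to 4, 0 and 0. Between APP/PS1 and WT, Tgfb2 ranged from −0.28 to 0.015, Tgfb3 from −0.90 to −0.38, Smad2 from −0.40 to −0.14, Smad3 from 0.019 to 0.14, Smad7 from 0.078 to 0.42 and Itgb8 from −0.20 to −0.0034. Between N-AS and APP/PS1, Tgfb2 ranged from −0.053 to 0.080, Smad3 from −0.049 to 0.017, Smad7 from −0.27 to 0.048 and Itgb8 from −0.10 to 0.11. Between N-AS and WT, Tgfb2 ranged from −0.27 to 0.027, Smad7 from −0.081 to 0.27 and Itgav from −0.085 to 0.052.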
